A study of Mus musculus with 45 samples.

Results

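Genes of interferon signalling and its close relatives were followed in the mouse distal colon. They were the transcription factor genes Stat2, Stat3, Irf1, Irf7, Irf8 and Irf9, the feedback inhibitor gene Socs1, the PD-L1 gene Cd274 and the receptor gene Ifngr1. These 9 members were taken by name from the 50600 gene identifiers of the deposited tables. The tissue was distal colon, either wild type or Il10 knockout; Il10 encodes an anti-inflammatory cytokine, and its loss leads to colitis. The first cohort held 8 libraries from untreated wild-type mice, 10 from Il10 knockout mice given vehicle, 9 from knockout mice given compound 13 at 30 mg/kg and 7 from knockout mice given it at 10 mg/kg. Compound 13 is a code name for a compound that blocks GPR4, a proton-sensing receptor. The second cohort, labelled day 77, held 5 libraries from Il10 knockout mice given vehicle and 5 from knockout mice given an antibody against p40, the subunit shared by the cytokines IL-12 and IL-23. This cohort had no wild-type group. The labels give no strain, knockout allele, sex, age or treatment schedule, and do not say whether each library came from a separate animal, so the spread behind each p-value is that of libraries and may be technical.

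As background, interferon gamma binds a receptor of the chains IFNGR1 and IFNGR2, while type I and III interferons act through ISGF3, a complex that holds STAT2 and IRF9. STAT dimers bind GAS elements and ISGF3 binds the interferon-stimulated response element (ISRE). IRF1, IRF7 and IRF8 are themselves transcription factors of the interferon response, and IRF8 is also needed by dendritic cells and macrophages. STAT3 is used mainly by IL-6, IL-10 and IL-22, and in gut epithelium it drives defence and repair genes. SOCS1 blocks JAK kinases, and PD-L1 restrains T cells through the receptor PD-1.

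The promoters of the members that rose in knockout colon and held a GAS or ISRE core are shown because both elements are the ones read by the STATs and IRFs measured here. RefSeq promoters (GRCm38.p6, 250 bases before to 50 after the start site) matched all 9 members, with 12 start sites. The ISRE core was searched on both strands as GAAA, any bases at the next pair of positions, then GAAA; the GAS core as TTCNNNGAA. The ISRE core occurred in 3.44% and the GAS core in 8.30% of the 32851 mouse promoters of the same length. Each occurred in 2 of the 12 promoters of the members, which belong to 2 of the 9 members. No ISRE match overlapped a GAS match in these members, but the pair of ISRE matches of Socs1 overlap. Capitals mark the matches, and each promoter is written in the direction of its gene.
Socs1 (chr16:10785487-10785786, minus strand): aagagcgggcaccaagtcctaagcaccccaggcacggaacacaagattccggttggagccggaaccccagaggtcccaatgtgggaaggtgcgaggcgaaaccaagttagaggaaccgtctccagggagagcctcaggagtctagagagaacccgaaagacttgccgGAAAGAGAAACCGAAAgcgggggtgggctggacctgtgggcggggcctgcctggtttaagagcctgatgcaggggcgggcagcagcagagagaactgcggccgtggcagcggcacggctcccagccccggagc
Stat2 (chr10:128270248-128270547, plus strand): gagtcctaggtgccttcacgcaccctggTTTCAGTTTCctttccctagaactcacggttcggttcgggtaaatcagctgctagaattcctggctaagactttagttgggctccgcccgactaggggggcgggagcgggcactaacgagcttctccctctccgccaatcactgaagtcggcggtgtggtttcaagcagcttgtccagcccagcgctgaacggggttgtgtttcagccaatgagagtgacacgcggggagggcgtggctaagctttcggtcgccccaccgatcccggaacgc
Irf8 (chr8:120736108-120736407, plus strand): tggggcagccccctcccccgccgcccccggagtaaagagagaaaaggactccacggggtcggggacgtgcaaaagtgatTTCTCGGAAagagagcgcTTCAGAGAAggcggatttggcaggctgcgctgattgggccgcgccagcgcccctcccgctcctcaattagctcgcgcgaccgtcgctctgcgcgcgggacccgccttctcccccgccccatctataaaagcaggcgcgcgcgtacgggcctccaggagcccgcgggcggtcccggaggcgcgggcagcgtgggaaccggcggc
Irf1 (chr11:53769764-53770063, plus strand): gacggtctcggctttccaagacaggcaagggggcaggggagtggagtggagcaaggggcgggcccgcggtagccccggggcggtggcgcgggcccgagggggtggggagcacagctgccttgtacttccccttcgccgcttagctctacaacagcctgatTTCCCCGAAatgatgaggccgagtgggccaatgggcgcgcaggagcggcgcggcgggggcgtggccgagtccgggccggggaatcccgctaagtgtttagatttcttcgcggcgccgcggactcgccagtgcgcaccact
The Socs1 matches began 83 and 77 bases before the start site. The Stat2 match, on the other strand, began 222 bases before it. The GAS matches of Irf8 began 171 and 153 bases before its upstream start site, and that of Irf1 90 bases before its upstream start site. A match is a description of the letters and not a measured binding site.

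The libraries held 22682491 to 36279774 counts, and 44 of 45 could be placed in a group. Il10 gave 10 counts over the wild-type libraries, with 4 of 8 above 0, and 0 counts in all 36 grouped knockout libraries. Epithelial markers of the colon summed to between 11025 and 26546 CPM in the libraries, against 6.35 to 214 CPM for small intestinal enterocyte markers. More than 100 CPM of pancreatic acinar transcripts stood in 10 grouped libraries: 1 wild-type, 4 vehicle, 4 at 30 mg/kg and 1 with anti-p40. Values below are CPM, counts relative to library size, scaled by TMM within each cohort, unless they are called TPM, which also corrects for transcript length and was used to compare genes. CPM are not compared between the cohorts.

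Per transcript length, Ifngr1 was the most abundant member in wild-type colon, at 247 ± 17.7 TPM (mean ± SD, n = 8). Irf1 followed at 118 ± 13.2 TPM, Irf7 at 65.1 ± 10.1 TPM and Stat3 at 56.0 ± 4.84 TPM. Irf8 (31.1 ± 2.86 TPM), Irf9 (23.4 ± 3.29 TPM) and Stat2 (16.6 ± 1.81 TPM) lay lower. Cd274 at 6.39 ± 0.971 TPM and Socs1 at 4.64 ± 1.05 TPM were the scarcest. In knockout vehicle colon Irf1 reached 235 ± 64.6 TPM and Ifngr1 214 ± 28.2 TPM (n = 10). Irf1 stood above Ifngr1 in 0 of 8 wild-type libraries, in 6 of 10 vehicle libraries, in 5 of 9 at 30 mg/kg and in 6 of 7 at 10 mg/kg. In the day 77 cohort it did so in 3 of 5 vehicle and 1 of 5 anti-p40 libraries.

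**Figure D1:**
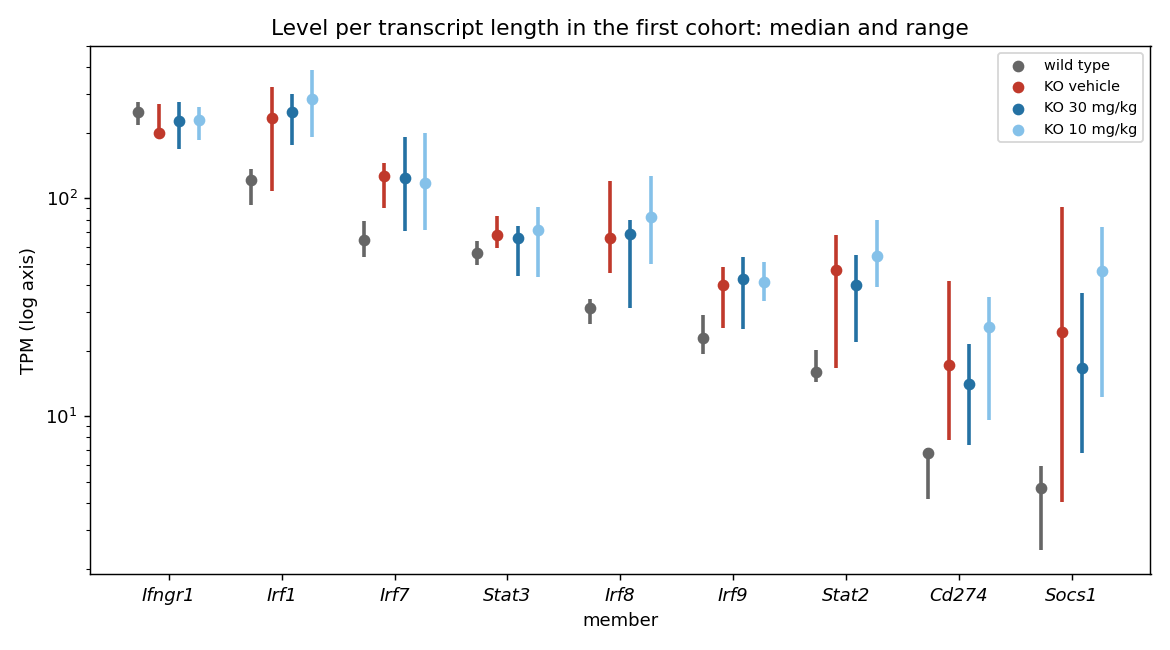
Median (point) and range over libraries (line) of each member's level in TPM, on a log axis, in the 4 groups of the first cohort. Socs1 and Cd274 are lowest in wild type, and the medians of the knockout groups lie above that of wild type for every member but Ifngr1.

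Nearly all members were higher in knockout vehicle colon than in wild type. In edgeR's quasi-likelihood test, 8 of 9 members passed an adjusted p of 0.05 in that direction, where 25.2% of the 16435 genes tested did. The median log2 fold change was 1.25 over the members and -0.01 over all genes tested. The receptor gene Ifngr1 (chromosome 10, 19591949 to 19610229) was the exception. It ran from 270 to 361 CPM in wild type, with a median of 299.5, and from 234 to 408 CPM with a median of 270.0 in knockout vehicle. Of the 10 vehicle values, 5 were under the wild-type minimum and 1 was over the wild-type maximum. The difference of -0.04 ± 0.10 (log2 ± SE, adjusted p = 0.755) had a 95% interval from -0.23 to 0.15. Scaling to the total count (-0.20, adjusted p = 0.0265) or TPM with a pseudocount of 1 (-0.21, adjusted p = 0.0192) called Ifngr1 lower. Both settings moved the median of all genes as well, to -0.16.

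Of the members Stat2 and Stat3, Stat2 (chromosome 10, 128270559 to 128292849), which encodes an ISGF3 subunit, had the larger fold change. Its wild-type libraries lay between 34.04 and 41.0 CPM with a median of 38.9, and its vehicle libraries between 39.8 and 182 CPM with a median of 121. All but 1 of the 10 vehicle libraries lay above every wild-type library, and the fold change was 3.09 (log2 1.63 ± 0.20, adjusted p = 1.1e-05). Stat3 (chromosome 11, 100885098 to 100939540) moved over a narrower range, from 137 to 169 CPM in wild type (median 141) and from 159 to 246 CPM in vehicle (median 209). Again 9 of 10 vehicle libraries lay above all of wild type, and the fold was 1.43 (log2 0.52 ± 0.07, adjusted p = 4.4e-05).

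The 4 IRF genes rose between 1.99-fold and 2.86-fold. Irf8 (chromosome 8, 120736358 to 120756694) went from 45.3 to 59.3 CPM in wild type (median 52.1) to between 75.6 and 241 CPM in vehicle (median 136). No library of the 2 groups overlapped, and the fold was 2.86 (log2 1.52 ± 0.17, adjusted p = 4.15e-06). Irf1 (chromosome 11, 53770014 to 53778374), which acts on MHC class I and immunoproteasome genes, ran from 117 to 167 CPM (median 142) and from 130 to 473 CPM (median 324). Only vehicle library 3 fell among wild type, and the fold was 2.38 (log2 1.25 ± 0.18, adjusted p = 4.95e-05). Irf7 (chromosome 7, 141262706 to 141266481), the amplifier of type I interferon production, ran from 59.6 to 93.4 CPM (median 74.3) in wild type and from 105 to 200.5 CPM (median 172.5) in vehicle. Its groups did not overlap, and the fold was 2.19 (log2 1.13 ± 0.13, adjusted p = 6.2e-06). Irf9 (chromosome 14, 55603571 to 55610030), the DNA-binding subunit of ISGF3, ran from 27.3 to 41.6 CPM (median 33.9) and from 37.2 to 83.6 CPM (median 69.4). It was above all of wild type in 9 of 10 libraries, with a fold of 1.99 (log2 0.99 ± 0.12, adjusted p = 9.88e-06).

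Socs1 (chromosome 16, 10782240 to 10785536) had the largest fold change and the widest spread relative to its mean of the members. In wild type it ran from 1.57 to 3.89 CPM with a median of 2.98, and in vehicle from 2.57 to 71.4 CPM with a median of 18.6. The highest vehicle library held 27.8 times the lowest, and 9 of 10 stood above all of wild type. The fold was 8.86 (log2 3.15 ± 0.48, adjusted p = 8.37e-05). Cd274 (chromosome 19, 29367455 to 29388095) ran from 10.2 to 16.9 CPM (median 15.4) in wild type and from 17.6 to 117 CPM (median 46.1) in vehicle. The groups did not overlap, and PD-L1 message rose 3.57-fold (log2 1.84 ± 0.28, adjusted p = 7.49e-05). The authors' deposited table, made with a Wald test, gives log2 fold changes of 3.52 for Socs1, 1.92 for Cd274 and -0.00137 for Ifngr1.

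**Figure D2:**
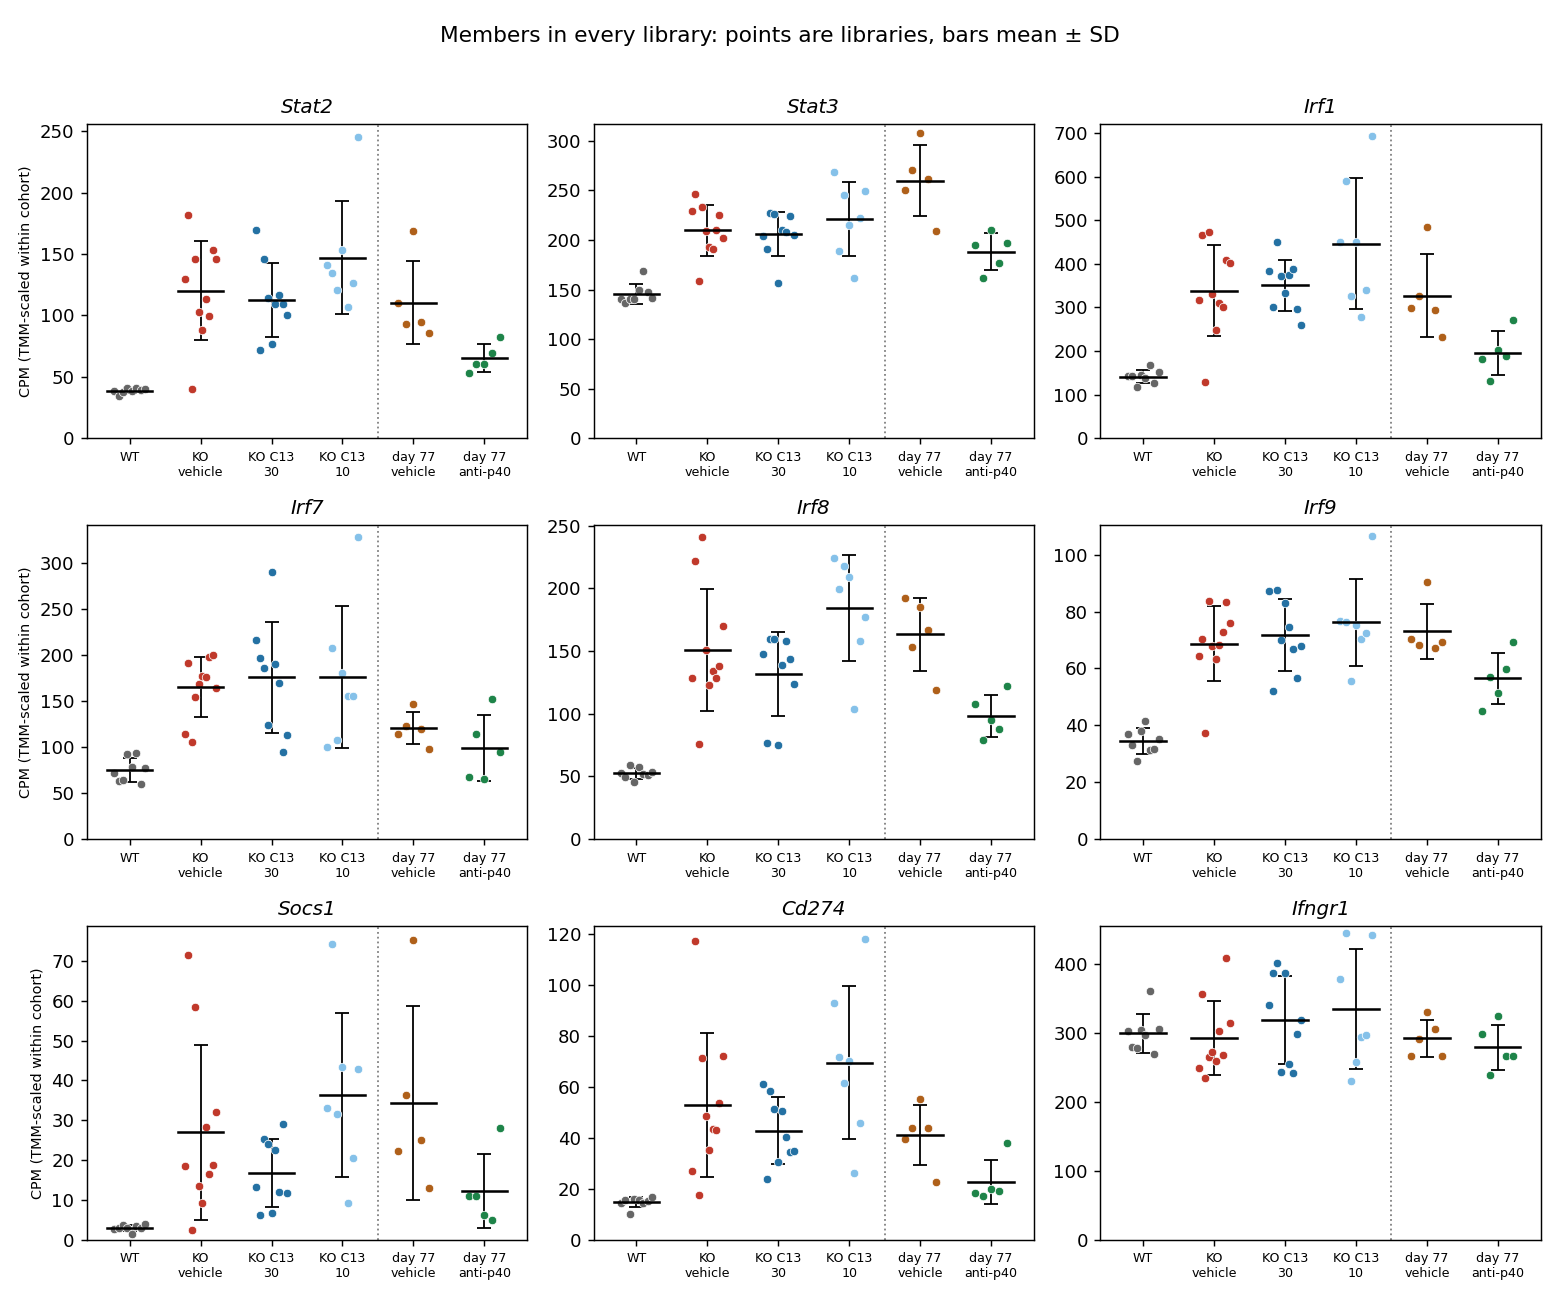
CPM of each member in every library (points), with the group mean and SD (bars), in the first cohort left of the dotted line and the day 77 cohort right of it. Among first-cohort vehicle libraries the lowest point, library 3, is the same one in all 9 panels. In that group the spread relative to the mean is widest for Socs1 and Cd274 (SD 81% and 54% of the mean).

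Vehicle library 3 held the lowest value of its group for all 9 members, with Irf1 at 130 CPM, Stat2 at 39.8 CPM and Socs1 at 2.57 CPM, all within the wild-type range. It had the highest sum of smooth muscle markers of its group (7677 CPM) and of fibroblast markers (1261 CPM), and the lowest of epithelial (12137 CPM), plasma cell (483 CPM) and neutrophil markers (117 CPM). Its T cell (39.4 CPM) and dendritic cell (46.4 CPM) sums lay mid-range. At the other end, vehicle library 2 was highest for 4 members, with Socs1 at 71.4 CPM and Cd274 at 117 CPM, and had the lowest smooth muscle sum (344 CPM) and the highest neutrophil sum (1298 CPM). Its T cell (66.9 CPM), B cell (394 CPM), plasma cell (2285 CPM), macrophage (357 CPM) and dendritic cell (81.9 CPM) sums were the highest of the group too. The part of tissue make-up in the spread of the members was not tested. Without library 3, 8 members were still called and Stat2 was at 1.73 ± 0.12, Irf1 at 1.35 ± 0.12 and Socs1 at 3.28 ± 0.39 (log2).

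Markers of other cell types moved with the same comparison. Among T cell markers 7 of 8 rose, and their sum went from 5.56 to 22.2 CPM in wild type to 26.5 to 66.9 CPM in vehicle. Dendritic cell markers rose in 5 of 7 (12.3 to 23.9 CPM against 29.4 to 81.9 CPM), and macrophage markers rose in 7 of 8 and fell in 1 (133 to 186 CPM against 154 to 357 CPM). All 6 smooth muscle markers fell, from 4524 to 10908 CPM in wild type to 344 to 7677 CPM. Colon epithelium markers rose in 5 of 8 and fell in 1 (11025 to 14076 CPM against 12137 to 25616 CPM). Neutrophil markers rose in 4 of the 4 tested, plasma cell markers in 4 of 5 and B cell markers in 4 of 6. Fibroblast markers fell in 4 of 5, enteric neuron and glia markers in 4 of 6 and endothelial markers in 2 of 6. None of these markers was at 0 throughout a group. In bulk tissue, more cells of a type and more RNA per cell cannot be told apart, and the part of these shifts in the members' changes was not tested.

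Around the members, the rest of the pathway did not rise as one. Of 9 JAK kinase and interferon receptor chain genes, 5 rose and none fell, at a list median of 0.22 (log2), with Jak3 at 1.22 ± 0.15, Ifnar2 at 0.46 ± 0.16 and Jak2 at 0.43 ± 0.16. Of the other STAT genes listed, Stat4 (1.56 ± 0.34), the STAT of IL-12, rose, while Stat5a was at 0.10 ± 0.10, Stat5b at -0.11 ± 0.07 and Stat6 at -0.06 ± 0.06, and these 3 did not pass. Of 8 other IRF family and IRF2-binding genes, 2 rose and 5 fell. Irf4 (1.33 ± 0.26), a factor of plasma cells and T cells, and Irf5 (0.98 ± 0.23), a factor of macrophages, were the ones that rose. Irf2bp2 (-0.67 ± 0.13), Irf2bpl (-0.64 ± 0.12) and Irf2 (-0.34 ± 0.08), which encodes an antagonist of IRF1, fell.

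Among 16 other negative regulators of JAK-STAT signalling, 6 rose and 6 fell. Usp18 (3.64 ± 0.50), which restrains the type I interferon receptor, Socs3 (3.36 ± 0.45), the inhibitor induced by STAT3, and Ptpn1 (0.55 ± 0.11), a phosphatase, rose as Socs1 did. Socs2 (-0.72 ± 0.16), Socs5 (-0.60 ± 0.10) and Socs7 (-0.34 ± 0.06) fell. Beside Cd274, 4 of 5 PD-1 pathway partners rose and 1 fell. They included the receptor gene Pdcd1 (2.91 ± 0.57), the second ligand gene Pdcd1lg2 (2.705 ± 0.59) and Cd80 (1.84 ± 0.51), whose protein binds PD-L1, while Cmtm4 (-0.43 ± 0.07), which encodes a stabiliser of PD-L1, fell. None of the 7 listed interferon genes passed the expression filter in this comparison; Ifng averaged 0.00923 CPM in wild type and 1.65 ± 2.78 CPM in vehicle.

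The listed downstream genes rose throughout. All 11 interferon gamma targets rose (list median 3.02), among them Ido1 (7.33 ± 0.77), Cxcl9 (6.27 ± 0.75) and the MHC class I activator Nlrc5 (4.48 ± 0.40). All 10 STAT3 targets rose (median 1.89), led by the antimicrobial lectins Reg3g (9.76 ± 1.81) and Reg3b (9.35 ± 1.92). All 12 ISGF3 targets rose (median 2.35), with Oas3 at 4.62 ± 0.39, Ifit2 at 4.21 ± 0.53 and Oas2 at 3.14 ± 0.37. These lists were assembled with earlier results of the same data known, so their direction is no independent evidence.

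Compound 13 moved none of the members past the test at either dose. At 30 mg/kg against vehicle, edgeR called 0 of 9 members, and 0 had an unadjusted p under 0.05; DESeq2 and limma voom called 0 too. Over all 16948 genes edgeR called 0%. Socs1 ran from 6.15 to 29.0 CPM (median 13.3), wholly inside the vehicle range, and its difference of -0.68 ± 0.45 (adjusted p = 0.917) had a 95% interval from -1.56 to 0.20. The authors' deposited table gives Socs1 a log2 fold change of -1.07 with an adjusted p of 0.523. Cd274, at 23.8 to 61.3 CPM (median 40.3), differed by -0.30 ± 0.28 with an interval from -0.85 to 0.25. The narrowest intervals were those of Stat3 (-0.20 to 0.16), at 156 to 227 CPM, and of Irf9 (-0.18 to 0.32), at 52.0 to 87.7 CPM. Stat2 (-0.48 to 0.31), Irf1 (-0.30 to 0.42), Irf7 (-0.30 to 0.50), Irf8 (-0.55 to 0.16) and Ifngr1 (-0.13 to 0.40) also had intervals that include 0. A p above the threshold does not show that the groups were alike.

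At 10 mg/kg, 0 of 9 members were called by edgeR, as by DESeq2 and limma voom, where edgeR called 0.0118% of all genes, and 1 had an unadjusted p under 0.05. That member was Irf1, at 277 to 692 CPM (median 450) against 130 to 473 CPM in vehicle, a difference of 0.41 ± 0.20 (unadjusted p = 0.048, adjusted p = 0.447). All 9 estimates lay above 0, from 0.09 ± 0.10 for Stat3 to 0.44 ± 0.47 for Socs1. Their median was 0.30, against -0.02 over all genes tested. Library 7 of this group was highest for 5 members, with Stat2 at 245 CPM, Irf7 at 328 CPM and Cd274 at 118 CPM, and library 5 was lowest for 6. Library 7 also had the lowest smooth muscle sum of the group (333 CPM). Its T cell (73.4 CPM), macrophage (378 CPM) and dendritic cell (86.9 CPM) sums were the highest, while its B cell sum (256 CPM) lay mid-range. Between the doses, all 9 estimates lay below 0 at 30 relative to 10 mg/kg, Irf7 only at -0.0023, but edgeR called 0 of 9 members and 0% of all genes. The median was -0.35 over the members and 0.02 over all genes tested. Unadjusted p was under 0.05 for 3 members: Irf8 (-0.49 ± 0.20, adjusted p = 0.257), Socs1 (-1.12 ± 0.48, adjusted p = 0.295) and Cd274 (-0.70 ± 0.31, adjusted p = 0.297). The shares of all genes on the same side of 0, or with an unadjusted p under 0.05, were not counted. These comparisons share the vehicle libraries or the fit, so their directions are not independent. At 30 relative to 10 mg/kg, list medians (log2) were 1.29 for smooth muscle markers and 0.06 for colon epithelium markers. They were -0.97 for B cell, -0.80 for dendritic cell, -0.52 for macrophage and -0.49 for T cell markers. None of these markers was called, and their part in the members' estimates was not tested.

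Both dosed groups also stood above wild type. At 30 mg/kg 8 of 9 members were called higher than in wild type (19.6% of all genes), with Stat2 at 1.54 ± 0.20, Irf8 at 1.32 ± 0.18, Irf7 at 1.24 ± 0.20, Cd274 at 1.54 ± 0.28 and Socs1 at 2.47 ± 0.46. At 10 mg/kg 8 of 9 were called higher (24% of all genes), with Stat2 at 1.92 ± 0.21, Irf8 at 1.81 ± 0.19, Irf7 at 1.23 ± 0.21, Cd274 at 2.23 ± 0.29 and Socs1 at 3.58 ± 0.49. For 7 members, all but Stat3 and Ifngr1, no library of either dosed group overlapped wild type. How many of all genes tested separated in this way was not counted, in this or any other comparison. In TPM with a pseudocount of 1, Stat3 no longer passed the test at 30 mg/kg (0.16, adjusted p = 0.270) or at 10 mg/kg (0.28, adjusted p = 0.0563). Ifngr1 was not called at 30 mg/kg (0.10 ± 0.13, adjusted p = 0.596) or at 10 mg/kg (0.16 ± 0.14, adjusted p = 0.360). In the order of mean CPM, wild type was lowest for 8 members; the knockout groups that followed each overlapped their neighbour and did not differ by the test.

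**Figure D3:**
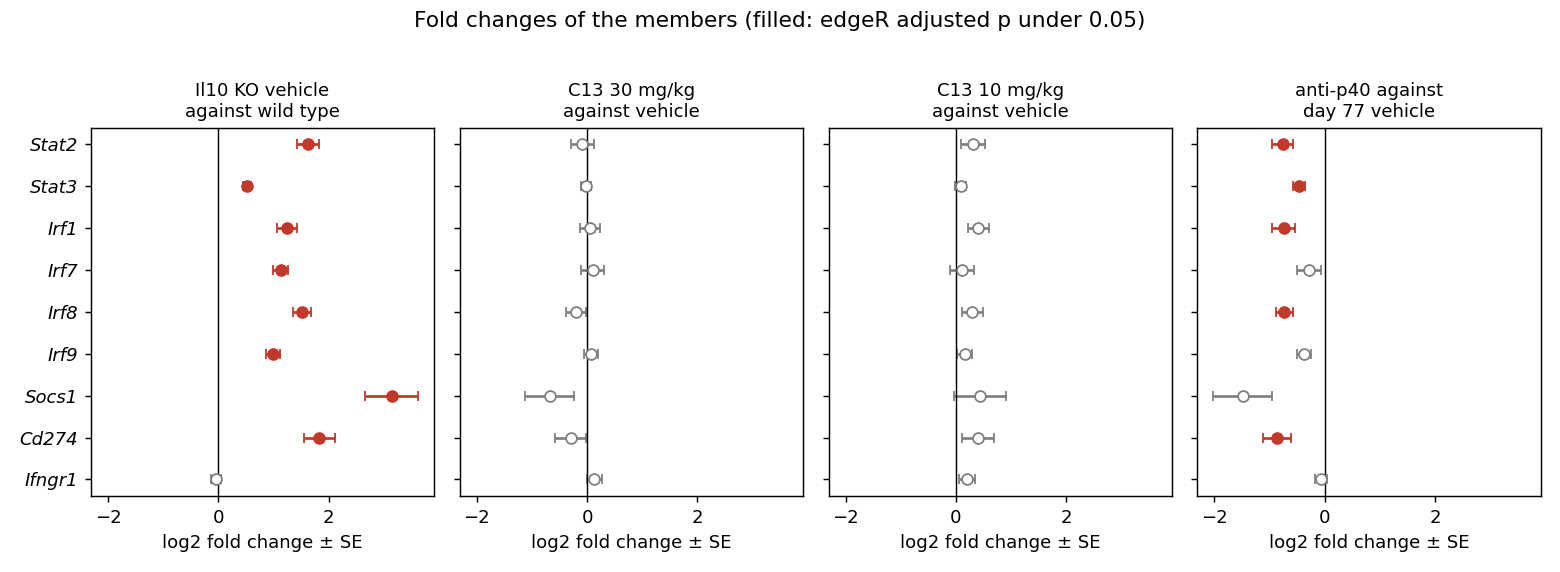
log2 fold change with its SE for each member in 4 comparisons (horizontal axis), with filled red points where the edgeR adjusted p was under 0.05. In the knockout comparison 8 points are filled and lie right of 0, in both compound 13 panels none is filled, and with anti-p40 5 are filled and lie left of 0.

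In the day 77 cohort, 5 of the 9 members were lower with anti-p40, where 8.32% of the 16470 genes tested were lower; the median over the members was -0.73, against 0.01 over all genes. Irf8 was at 192, 153, 185, 167 and 119 CPM in the 5 vehicle libraries and at 108, 79.0, 94.5, 87.8 and 122 CPM with anti-p40. Only anti-p40 library 5 rose above the lowest vehicle library, and Irf8 fell by 0.73 ± 0.15 on the log2 scale (adjusted p = 0.00909), or 1.66-fold. Stat2 was at 110, 93.0, 168, 94.7 and 85.3 CPM with vehicle and at 53.0, 60.4, 60.3, 69.0 and 82.5 CPM with anti-p40. Its groups did not overlap, the only member of which this was true, and it fell by 0.76 ± 0.19 (adjusted p = 0.0196). Stat3 was at 250, 271, 309, 261 and 209.4 CPM with vehicle and at 195, 162, 209.9, 177 and 197 CPM with anti-p40. The highest anti-p40 library lay just above the lowest vehicle library, and Stat3 fell by 0.47 ± 0.11 (adjusted p = 0.0176).

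Irf1 was at 298, 327, 485, 295 and 232 CPM with vehicle and at 182, 132, 203, 187 and 271 CPM with anti-p40, and fell by 0.75 ± 0.21 (adjusted p = 0.0352). Cd274 was at 39.7, 43.9, 55.2, 43.9 and 22.6 CPM with vehicle and at 18.3, 17.0, 20.1, 19.3 and 37.9 CPM with anti-p40, and fell by 0.87 ± 0.26 (adjusted p = 0.0437). In both genes 4 of 5 anti-p40 libraries were below all vehicle libraries, and library 5 was the one that was not. Both calls were lost when any 1 of 8 of the 10 libraries was left out, Stat2 was lost without anti-p40 library 2 (adjusted p = 0.0510), and Irf8 and Stat3 were called in every such fit. Stat3 (adjusted p = 0.0559) and Cd274 (0.0694) did not pass in TPM with a pseudocount of 1, nor did Irf1 (0.0552) and Cd274 (0.0837) without an expression filter.

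The other 4 members did not pass. Socs1 was at 22.2, 36.4, 75.2, 25.0 and 13.0 CPM with vehicle and at 11, 11, 6.16, 4.91 and 28.2 CPM with anti-p40, a difference of -1.49 ± 0.54 (adjusted p = 0.0786). Here too 4 of 5 anti-p40 libraries were below all of vehicle; without library 5 the difference was -2.04 ± 0.49 (adjusted p = 0.0225). Irf9 differed by -0.37 ± 0.12 (adjusted p = 0.0631), Irf7 by -0.29 ± 0.22 (adjusted p = 0.395) and Ifngr1 by -0.07 ± 0.10 (adjusted p = 0.694). Irf7 ran from 98.3 to 147 CPM with vehicle and from 65.7 to 152 CPM with anti-p40, so that the anti-p40 range held the vehicle range. In the authors' deposited table Irf9 has an adjusted p of 0.0353 and Socs1 of 0.0537.

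Anti-p40 library 5 was highest of its group for 6 members. It was also the only day 77 library with more than 100 CPM of acinar transcripts (5418 CPM). Without it 7 members were called, as were 2494 of 16667 genes in either direction. Of the vehicle libraries, library 3 was highest for 8 members and library 5 lowest for 8. Cell type markers moved with treatment too. T cell markers fell in 7 of 8, from 36.5 to 55.7 CPM with vehicle to 10.9 to 25.9 CPM with anti-p40. Macrophage markers fell in 6 of 8 and rose in 1 (240 to 389 CPM against 189 to 222 CPM), dendritic cell markers fell in 2 of 7 (40.3 to 70.9 CPM against 20.8 to 39.2 CPM), and smooth muscle markers rose in 5 of 6 (1538 to 3877 CPM against 4012 to 10214 CPM). Neutrophil markers fell in 3 of the 4 tested and plasma cell markers in 2 of 5, while colon epithelium markers rose in 2 of 8 and fell in 1. Enteric neuron and glia markers rose in 2 of 6 and endothelial markers in 1 of 6. None of these markers was at 0 throughout a group, and their part in the members' changes was not tested.

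The listed targets differed in how many passed the test with anti-p40. All 11 interferon gamma targets fell (list median -2.07), with Ido1 at -4.68 ± 0.70, Cxcl9 at -3.45 ± 0.71 and Nlrc5 at -2.76 ± 0.40. Of the 10 STAT3 targets 8 fell (median -1.42), with Reg3b at -7.83 ± 1.73, Reg3g at -6.55 ± 1.49 and Socs3 at -1.96 ± 0.35. Of the 12 ISGF3 targets 2 fell (median -0.66), Ifit2 at -2.99 ± 0.36 and Oas3 at -1.55 ± 0.39, while Oas2 was at -0.96 ± 0.43 (adjusted p = 0.143). The difference between the lists was not tested. Upstream, Stat4 fell by 1.505 ± 0.39 and Jak3 by 0.95 ± 0.12 on the log2 scale, and 2 of 9 JAK and receptor genes fell in all. Ifng, tested in this cohort, fell by 3.47 on the log2 scale (adjusted p = 0.0436). Its levels were low, from 0.275 to 3.98 CPM with vehicle (median 0.637) and from 0 to 0.455 CPM with anti-p40 (median 0.0389). Of the other negative regulators 3 fell, Socs3, Usp18 (-1.32 ± 0.38) and Ptpn1 (-0.54 ± 0.13), and 2 rose, one of them Socs2 (1.18 ± 0.13). Of the 5 PD-1 partners, Cmtm4 rose (0.36 ± 0.09) and 1 other fell, while Pdcd1 (-1.29 ± 0.50) and Pdcd1lg2 (-1.04 ± 0.55) did not pass.

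**Figure D4:**
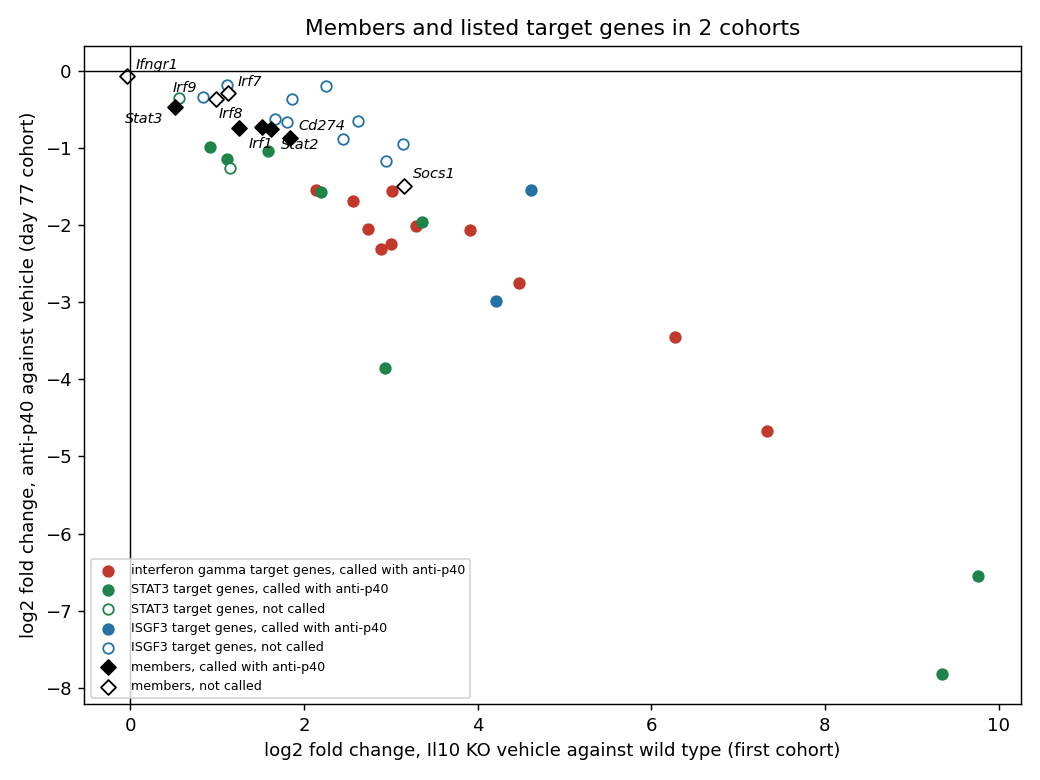
log2 fold change of listed target genes (circles) and members (diamonds) in knockout vehicle against wild type (horizontal) and in anti-p40 against vehicle (vertical), from separate cohorts; filled symbols passed the test with anti-p40. All 11 red interferon gamma targets are filled, 8 of 10 green STAT3 targets, 2 of 12 blue ISGF3 targets and 5 of 9 members.

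The anti-p40 effect was set against the 30 mg/kg effect, each relative to the vehicle of its own cohort. In edgeR 0 of 9 members passed (1.65% of all genes did), as in DESeq2 and limma voom. An unadjusted p under 0.05 was seen for 4 members, and the share of all genes with one was not counted. The difference was -0.45 ± 0.14 for Stat3 (adjusted p = 0.0910), -0.80 ± 0.29 for Irf1 (adjusted p = 0.143), -0.67 ± 0.30 for Stat2 (adjusted p = 0.255) and -0.44 ± 0.20 for Irf9 (adjusted p = 0.257). Stat3 passed when vehicle library 2 (adjusted p = 0.0494), 30 mg/kg library 5 (0.0378) or day 77 vehicle library 5 (0.0444) was left out. Hence the calls with anti-p40 and their absence with compound 13 were not shown to differ for any member.

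Within the knockout groups, the members varied together to unequal degrees. Spearman's rho was taken over the 26 knockout libraries of the first cohort after subtracting each group's mean of log2(CPM + 1). These values describe libraries that also differ in depth and tissue make-up, and no test was made on them. Cd274 and Irf1 were closest (0.85; 0.75 over the 10 day 77 libraries), followed by Stat2 with Irf1 (0.83 and 0.55), Irf8 with Cd274 (0.80 and 0.73) and Irf8 with Socs1 (0.79 and 0.61). Irf7 ranged from -0.16 to Stat3, -0.09 to Irf8 and 0.06 to Socs1, through 0.29 to Stat2 and 0.34 to Cd274, to 0.53 to Irf1, 0.56 to Ifngr1 and 0.62 to Irf9. In the day 77 cohort Irf7 was at 0.77 to Irf9 and 0.61 to Stat2, but at 0.16 to Irf1 and -0.22 to Ifngr1. Ifngr1 had a median rho of 0.31 to the other members, as did Irf7, against 0.73 for Cd274. Socs1 had the highest rho to Ifng of the members (0.85), and Irf7 the lowest (0.15). Ifng was scarce, with medians of 0.69 CPM in vehicle, 0.62 at 30 mg/kg and 0.98 at 10 mg/kg. Its lowest libraries held 5, 0 and 7 counts, so its ranks rest on few counts. The rho to Ifng was not taken over the day 77 libraries.

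**Figure D5:**
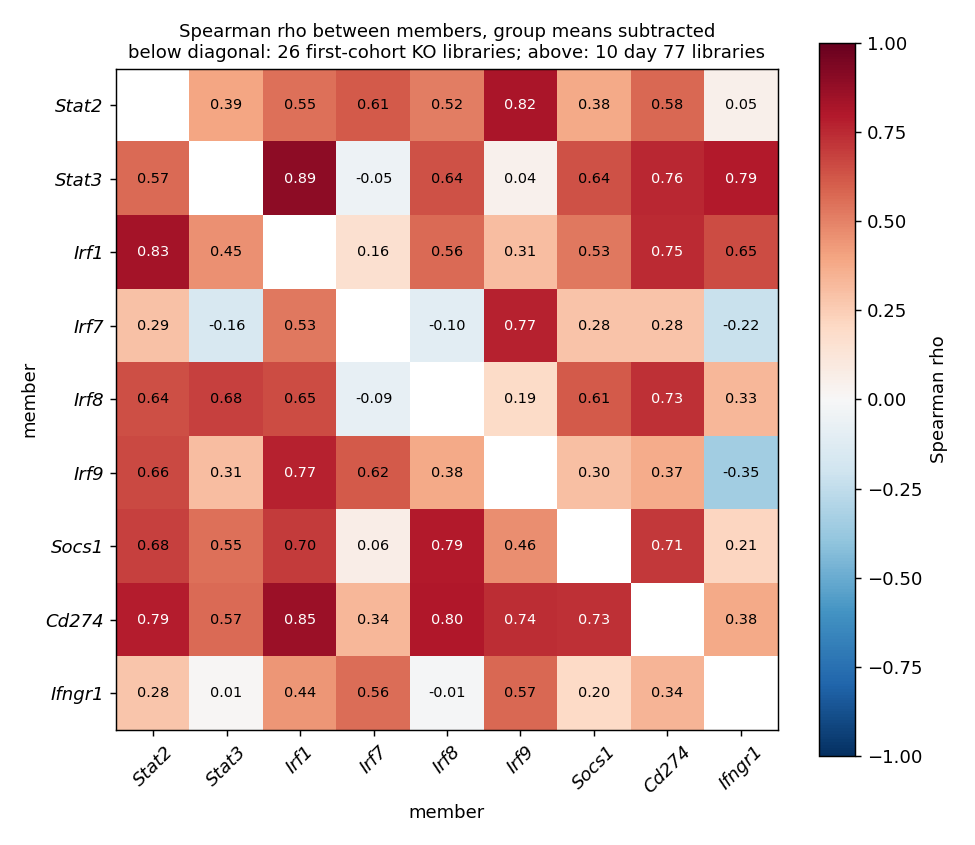
Spearman rho between each pair of members after group means were subtracted, below the diagonal over the 26 first-cohort knockout libraries and above it over the 10 day 77 libraries. Cd274 with Irf1 has the highest first-cohort value, 0.85, and Irf7 has the lowest, -0.16 with Stat3.

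The genes outside the member set with the most alike patterns sorted by member. Irf7 was most like Oas1a (0.88; 0.92 in the day 77 cohort) and Tmem243 (0.86; 0.39), and Irf9 most like Oasl2 (0.89; 0.89) and Oas3 (0.88; 0.78), which are genes of the antiviral OAS family in 3 of these 4 cases. Stat2 was most like Nlrc5 (0.95; 0.59) and the immunity-related GTPase gene Irgm2 (0.92; 0.42). Irf1 was most like Irgm1 (0.92; 0.84) and the proteasome activator gene Psme2 (0.91; 0.59), and Cd274 like Irgm1 (0.94; 0.76) and the guanylate-binding protein gene Gbp4 (0.93; 0.65). Irf8 was closest to Cd47 (0.90; 0.49) and the tryptophanyl-tRNA synthetase gene Wars (0.88; 0.85). Socs1 was closest to the actin regulator gene Cfl1 (0.94; 0.84) and to Tpm3-rs7 (0.94; 0.56), Stat3 to the kinase gene Lrrk1 (0.82; 0.83) and Igkv13-84 (0.78; 0.52), and Ifngr1 to Ccdc68 (0.96; 0.75) and Abhd17c (0.96; 0.69). Tpm3-rs7 and Igkv13-84 have near-identical relatives, so their counts are uncertain.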

How the data were processed

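RNA was sequenced from mouse distal colon after poly(A) enrichment, per the labels. Per the submitters' processing notes the tools were cutadapt 3.7, STAR 2.7.8a, RSEM 1.3.3 and DESeq2 1.30.1, with build mm10 (annotation and strandedness: not given in the sources used here). Estimated counts per gene, not normalized, were deposited by the authors, with TPM for the same libraries. The authors' comparison tables hold, per the file headers, log2 fold changes with p-values and adjusted p-values for 4 comparisons.

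Coordinates and symbols came from GENCODE M21, which matched 50376 identifiers and left 224 unmatched. Overlapping genes make the counts of Stat3 (Stat5a), Irf1 (Gm17334), Irf7 (Phrf1), Irf8 (Gm20388), Irf9 (Rnf31) and Cd274 (AC119228.1) uncertain. Estimated counts were rounded and tested with edgeR 4.0.16 (quasi-likelihood, robust, TMM, its default filter) in R 4.3.3, with Benjamini-Hochberg adjustment over all genes tested; the test was checked on simulated data. The knockout and anti-p40 comparisons used only their own groups, the compound 13 comparisons the 3 knockout groups of the cohort, the dosed groups against wild type all 4 groups, and the difference of effects all 6. SE is the log2 fold change over the square root of F, and 95% intervals are 1.96 SE on each side. Alternatives were DESeq2 1.42.0, limma 3.58.1 (voom, and log2 TPM with pseudocounts of 1 and 0.1 for genes with a mean TPM of 0.5 or more), other scalings, no filter, other groups in the fit and each library left out. Leaving out libraries with acinar transcripts was added after seeing the data.

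All 9 members passed the expression filter in each comparison. Members, gene lists and tests were chosen with earlier results of these data known. All members were named; of each list, up to 3 genes per direction with the largest change in knockout vehicle against wild type, and for each member the 2 genes of highest rho. Ifng and Il10 were also named. One further gene of these lists is not reported here. Library numbers follow the order of deposit and do not pair libraries. No pair of libraries in a group agreed within sampling noise (lowest chi-square per degree of freedom 8.12). One library is titled 30 mg/kg but its treatment label says 10 mg/kg, and it entered no comparison. A library with 0 counts could hold up to 3 counts, or 0.132 CPM in the shallowest; this covers counting error only.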

Additional observations from a re-analysis of the deposited data

Results flagged for a closer look

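In 54 sets of libraries (9 members in 6 groups), 9 had a highest or lowest library set far from the rest by Dixon's criterion at 95%; chance gives about 1 in 20. Library 7 at 10 mg/kg was high for Stat2 (245 CPM) and Irf9 (107 CPM). Vehicle library 3 was low for Irf9 (37.2 CPM), and day 77 vehicle library 3 was high for it (90.4 CPM). Anti-p40 library 5 was high for Socs1 (28.2 CPM) and Cd274 (37.9 CPM). In wild type, library 6 was high for Stat3 (169 CPM) and Ifngr1 (361 CPM), and library 3 low for Cd274 (10.2 CPM).

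The library whose labels give 2 doses is an Il10 knockout library and was used in no comparison. It lay above every wild-type library for 8 members: Stat2 (168 CPM), Stat3 (184 CPM), Irf1 (313 CPM), Irf7 (291 CPM), Irf8 (133 CPM), Irf9 (89.8 CPM), Socs1 (12.01 CPM) and Cd274 (38.9 CPM). For Ifngr1 it held 265 CPM, below all wild-type libraries. How many of all genes in this library lay outside the wild-type range was not counted.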

How the results depend on the processing

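The 8 members called higher in each knockout group than in wild type were called under every alternative, apart from Stat3 in TPM at both doses, and Ifngr1 was called lower in vehicle when scaled to total count or in TPM; the count of 0 called with compound 13 held under every alternative. With anti-p40 the count was 5, where 2745 of 16470 genes were called in either direction. It became 3 without an expression filter (2251 of 28559 genes). In TPM it was 3 with a pseudocount of 1 (1953 of 16289 genes) and 2 with 0.1 (1896 of 16289). It ranged from 2 to 7 with each library left out. It was 2 without anti-p40 library 2 and 7 without anti-p40 library 5 (2494 of 16667 genes). DESeq2 called 6 members (3824 of 20133 genes), adding Irf9 (adjusted p = 0.0433). Without libraries holding acinar transcripts the count against wild type was again 8 for vehicle (7674 of 16404 genes). The count for the difference of effects ranged from 0 to 1 with each library left out. For the other fits with 1 library left out, the numbers of all genes called are not given here. Scaling to the total count lowered the share of calls that were higher in vehicle than in wild type from 51.1% to 32.8%, and TPM with a pseudocount of 1 to 26.5%.

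No estimate whose sign differed from that of the main fit passed the test in either fit. Ifngr1 in vehicle against wild type kept its sign where it was called lower. It was at -0.20 scaled to total count (adjusted p = 0.0265) and at -0.21 and -0.22 in TPM with pseudocounts of 1 (0.0192) and 0.1 (0.0193). At 30 mg/kg against vehicle, Irf1 was at -0.0018 scaled to total count and at -0.17 without acinar libraries, Irf7 at -0.051 and -0.052 in TPM with pseudocounts of 1 and 0.1, and Irf9 at -0.022 and -0.023 in TPM and at -0.15 without acinar libraries. At 10 mg/kg, Irf7 was at -0.0099 scaled to total count, -0.067 and -0.068 in TPM and -0.039 without acinar libraries, and Stat3 at -0.028 and -0.029 in TPM. Between the doses Irf7 was at 0.012 with voom, 0.039 scaled to total count, 0.016 in both TPM fits and 0.10 without acinar libraries. Ifngr1 against wild type was at -0.14 scaled to total count and -0.20 in both TPM fits at 30 mg/kg, at -0.10 and -0.14 at 10 mg/kg, and at 0.053 in vehicle without acinar libraries; with anti-p40 it was at 0.024 and 0.025 in TPM. With each library left out, Ifngr1 in vehicle against wild type ran from -0.11 to 0.0014. At 30 mg/kg against vehicle Stat2 ran from -0.19 to 0.000013, Stat3 from -0.064 to 0.020, Irf1 from -0.043 to 0.12, Irf7 from -0.027 to 0.18 and Irf9 from -0.0078 to 0.12. Irf7 ran from -0.12 to 0.20 at 10 mg/kg. Between the doses Irf7 ran from -0.13 to 0.22, Irf9 from -0.15 to 0.012 and Ifngr1 from -0.14 to 0.013. The cause of these shifts was not tested. No paired analysis was possible because the labels give no replicate numbers.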
